A study of Arabidopsis thaliana with 6 samples.

Results

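Lipid droplet associated proteins (LDAPs), the LDAP-interacting protein (LDIP) and seipins are encoded by 7 Arabidopsis thaliana genes, which were followed here in green and non-green seeds. They were chosen by gene identifier, as the families of AT1G67360, AT2G47780 and AT3G05500 (LDAP1, LDAP2 and LDAP3), AT5G16550 (LDIP) and AT5G16460, AT1G29760 and AT2G34380 (SEIPIN1, SEIPIN2 and SEIPIN3). No threshold on a value entered that choice, but the families were taken up with the read counts of both seed colours known, so their fold changes and adjusted p-values are descriptions and not independent support. The deposited table annotates the LDAP genes as rubber elongation factor proteins and the seipin genes as seipins, gives AT5G16550 no name, and holds 32678 gene models. All 7 were among the 17239 gene models with enough counts to test.

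Oil in plant cells is kept in droplets, which bud from the endoplasmic reticulum and are covered by proteins. Seipins sit in the membrane of the reticulum where a droplet forms, and in Arabidopsis SEIPIN1 has been linked to larger droplets and SEIPIN2 and SEIPIN3 to smaller ones. LDAPs coat droplets from the cytosol side without the long membrane hairpin of oleosins, and are best known from leaves and other tissues poor in oleosin. LDIP binds LDAPs, and Arabidopsis plants without it have enlarged droplets.

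Green seeds carry the genotype label Atchlsyn1-1/CHLSYN and non-green, yellow seeds the label Atchlsyn1-1, an allele of chlorophyll synthase, and both lie in the siliques of a line in which seed colour segregates. The design text calls the non-green seeds unable to photosynthesise, while their titles call both kinds photosynthetic. There were 3 libraries of each, with total counts of 16438639 to 16745514. The labels give neither seed age, nor the number of plants behind a library, nor whether replicates came from separate plants, so a p-value reflects the spread of these 6 libraries alone, and that spread may be technical. Chlorophyll synthase itself (AT3G51820) had 3.32 ± 0.588 CPM (counts scaled to 1e6 per library) in green and 0.507 ± 0.144 in non-green seeds (SD, n = 3), a log2 fold change of -2.69 ± 0.36 (SE, edgeR adjusted p = 1.32e-09). Embryo markers of seed filling (the cruciferin genes CRA1 and CRU3 and the oleosin genes OLEO1 and OLEO2) were abundant, with summed levels of 285906 to 297367 CPM in green and 255128 to 265661 CPM in non-green libraries.

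The DNA upstream of the LDAP genes is shown because the family did not move as one, and because its promoters could be compared letter by letter. Windows of 300 bases before the annotated start were read from the RefSeq genome and annotation, TAIR10.1, and searched on both strands for the G-box CACGTG, the core ACGTG (which every G-box contains), the RY element CATGCA, the heat shock element GAANNTTC and the AW-box known from targets of WRI1, which is CNTNG and CG with 7 bases between them. Matches are in capitals. The LDAP1 window lies at chr1:25238217-25238516 on the minus strand and the LDAP2 window at chr2:19569740-19570039 on the plus strand. The farthest 122 bases of the LDAP1 window, at 300 to 179 bases before the start, lie inside AT1G67365, a long non-coding RNA gene on the other strand, and no match of LDAP1 touches them. For LDAP3 the 134 bases at chr3:1593048-1593181 on the plus strand are printed, and the 166 bases before them lie inside the neighbouring gene AT3G05490.
LDAP1: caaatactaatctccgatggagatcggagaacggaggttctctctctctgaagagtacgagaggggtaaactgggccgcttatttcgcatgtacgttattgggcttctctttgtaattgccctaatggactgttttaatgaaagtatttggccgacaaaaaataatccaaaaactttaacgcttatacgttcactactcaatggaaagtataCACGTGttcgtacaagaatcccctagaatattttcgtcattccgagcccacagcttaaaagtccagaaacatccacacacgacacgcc
LDAP2: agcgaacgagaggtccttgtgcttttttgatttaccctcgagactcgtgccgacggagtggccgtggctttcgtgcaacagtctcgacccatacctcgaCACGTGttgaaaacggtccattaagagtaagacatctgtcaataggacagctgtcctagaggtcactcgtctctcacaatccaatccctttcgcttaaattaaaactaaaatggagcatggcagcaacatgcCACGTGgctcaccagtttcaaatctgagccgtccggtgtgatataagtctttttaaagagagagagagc
LDAP3: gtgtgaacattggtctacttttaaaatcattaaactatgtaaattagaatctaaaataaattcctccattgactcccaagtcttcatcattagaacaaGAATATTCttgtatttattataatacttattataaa

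A G-box was found in the window of all 3 LDAP genes, once for LDAP1 at 88 to 83 bases before the start, at 201 to 196 and 69 to 64 bases for LDAP2, and at 269 to 264 bases for LDAP3, where it falls inside AT3G05490. Of the 27443 windows of protein-coding genes, 7.09% hold a G-box. The ACGTG core without a full G-box was also present for SEIPIN1, which makes 4 of 7 genes with the core against 25.6% of all windows. The RY element was matched only for SEIPIN1 among the 7 (10.3% of all windows), the AW-box only for SEIPIN3 (11.0%) and the heat shock element only for LDAP3 (11.5%). LDIP and SEIPIN2 held none of these letters in their windows. These are matches of letters and not measured binding sites, and their part in the transcript levels was not tested.

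Of the 7 genes, LDAP1 differed most between the seed colours. Its transcript was about 3 times as abundant in non-green seeds, LDAP3 and SEIPIN3 were modestly higher, and LDAP2, LDIP, SEIPIN1 and SEIPIN2 did not pass the test. Of the 7 genes 3 were called higher and 0 lower at an edgeR adjusted p under 0.05; over all 17239 genes tested 26.6% were called, 14.2% higher and 12.5% lower. Under scaling by total counts alone, higher genes made up 70.5% of all calls against 53.2% here, and the 7 genes gave 4 higher and 0 lower. The median log2 fold change of the 7 was 0.12, beside 0.00 over all genes tested. Every non-green library lay above every green one for 4 of the 7 (LDAP1, LDAP3, LDIP and SEIPIN3), against 19.2% of all genes tested. In whole seeds, fewer cells of a type and less RNA per cell cannot be told apart.

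LDAP1 (AT1G67360) is annotated on the minus strand of chromosome 1, from 25236781 to 25238216 (TAIR10.1), with up to 3 exons and a coding sequence for 240 residues. The green libraries held 839, 842 and 781 counts and the non-green ones 2602, 2688 and 2465. All non-green libraries lie far above all green ones, with a gap of 94.1 CPM between the nearest libraries of the groups. Mean levels were 50.8 ± 2.66 CPM in green and 151 ± 5.14 CPM in non-green seeds (SD, n = 3). This is 2.98-fold, with a log2 fold change of 1.57 ± 0.05 (SE, edgeR adjusted p = 4.05e-44). Only 1.03% of the genes tested had a larger change in either direction, and ordered from the most positive fold change LDAP1 stood at place 157. Its 3′ end overlaps AT1G67350, on the other strand, by 98 bases, and that gene was at 0.12 ± 0.10 (edgeR adjusted p = 0.421). Because the sources used here do not say whether counting used strand, reads of the overlap cannot be assigned. Smaller overlaps join LDAP2 with AT2G47790 (71 bases), SEIPIN2 with AT1G29770 (51) and SEIPIN3 with AT2G34390 (30), and none of these neighbours was called.

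LDAP3 (AT3G05500), on chromosome 3 at 1593182 to 1595099, was the most abundant of the 7 per length. The green libraries held 3348, 3255 and 3361 counts and the non-green ones 4395, 4262 and 4003. The groups do not overlap, but the step is small beside that of LDAP1. Its level went from 205 ± 1.42 to 247 ± 7.61 CPM (SD, n = 3), a log2 fold change of 0.26 ± 0.04 (SE, edgeR adjusted p = 4.52e-08), and 37.3% of the genes tested had a larger change.

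LDAP2 (AT2G47780), on chromosome 2 at 19570040 to 19571034, was scarce in these seeds. It had 57, 44 and 38 counts in the green and 56, 49 and 54 in the non-green libraries, and the groups overlap. Its levels of 2.87 ± 0.606 and 3.10 ± 0.209 CPM (SD, n = 3) gave a log2 fold change of 0.11 ± 0.24 (SE, edgeR adjusted p = 0.788). Its error is nearly as large as the whole change of LDAP3, so a change of that size could not be told from none at this depth.

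**Figure D1:**
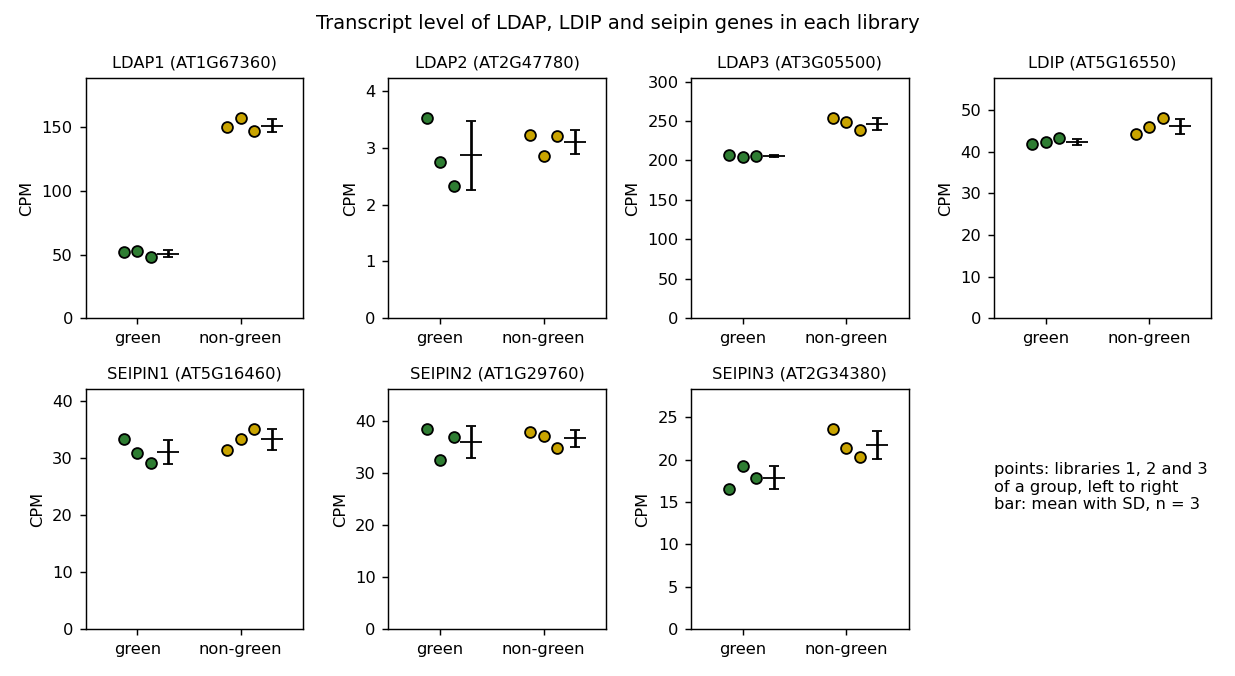
Level of each gene in each library, in CPM after TMM scaling (vertical axis from 0), for 3 green and 3 non-green libraries; points are libraries and the bar is the mean with SD. LDAP1 rises from 47.7 to 52.8 CPM in green to 147 to 157 CPM in non-green libraries, whereas the points of LDAP2, SEIPIN1 and SEIPIN2 overlap between groups.

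Within the LDAP family the make-up of the transcript pool differed between seed colours. Of the summed LDAP CPM, LDAP1 took 19.8%, 20.3% and 18.7% in green and 36.9%, 38.4% and 37.8% in non-green libraries. The LDAP3 share was 79.3% ± 0.969 (SD, n = 3) in green against 61.5% ± 0.722 in non-green libraries, and the LDAP2 share 1.10% ± 0.220 against 0.774% ± 0.0662. No library of one colour reaches the LDAP1 or LDAP3 share of the other. The summed level of the family was 259 ± 3.29 CPM in green and 401 ± 11.0 CPM in non-green seeds. Of the 142 CPM between them LDAP1 made up 70.7%, LDAP3 29.1% and LDAP2 0.165%. Per length, in the authors' RPKM (counts scaled to gene length and library total), LDAP3 was 4.61 ± 0.256 times as abundant as LDAP1 in green and 1.86 ± 0.0595 times in non-green libraries.

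The seipin family had a similar make-up in both colours. Of the summed seipin CPM, SEIPIN1 took 36.6% ± 1.66 (SD, n = 3) in green against 36.3% ± 2.54 in non-green libraries, SEIPIN2 42.3% ± 2.58 and 40.0% ± 1.19, and SEIPIN3 21.1% ± 2.30 and 23.7% ± 1.49. The difference is smaller than the SD of either colour for SEIPIN1 and larger than both for SEIPIN3. For SEIPIN2 it is smaller than the green SD but larger than the non-green one. The libraries of both colours overlap for all 3 genes. The summed level was 85.0 ± 2.95 CPM in green and 91.8 ± 1.42 CPM in non-green seeds.

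**Figure D2:**
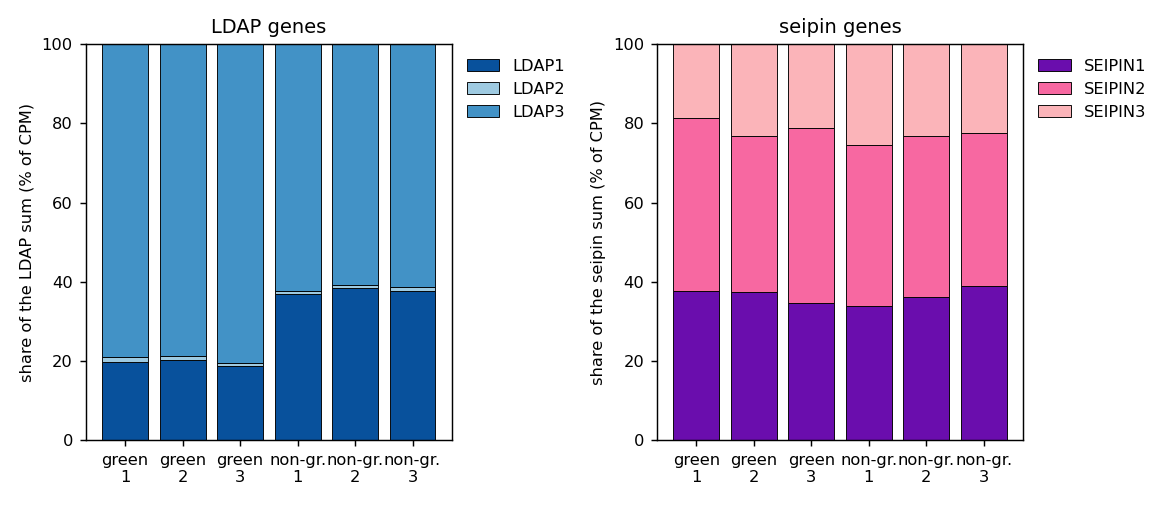
Share of each gene in the summed CPM of its family (percent, vertical axis) in each of the 6 libraries, with LDAP genes on the left and seipin genes on the right. The LDAP1 part is 18.7% to 20.3% in green and 36.9% to 38.4% in non-green libraries, while the seipin parts differ little between colours.

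LDIP (AT5G16550), on chromosome 5 at 5405346 to 5406887, had 676, 674 and 706 counts in the green and 769, 788 and 805 in the non-green libraries. Every non-green library lies above every green one, by 1.15 CPM at the nearest. Its levels of 42.4 ± 0.719 and 46.1 ± 1.82 CPM (SD, n = 3) gave a log2 fold change of 0.12 ± 0.06 (SE), which did not pass (edgeR adjusted p = 0.161). With scaling by total counts it was called higher (0.20, adjusted p = 0.0165). Set against the family it binds, LDIP amounted to 15.1% ± 0.444 of the summed LDAP RPKM in green and 10.9% ± 0.712 in non-green libraries. LDIP shares 25 bases with KAN (AT5G16560), a homeodomain-like gene on the other strand, and KAN was at -0.36 ± 0.09 (edgeR adjusted p = 0.00194).

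SEIPIN3 (AT2G34380), on chromosome 2 at 14512707 to 14514516 and annotated with 1 exon, was the seipin gene that passed. It had 267, 307 and 292 counts in the green and 410, 366 and 341 in the non-green libraries, and the groups are separate by 1.08 CPM. The level went from 17.9 ± 1.37 to 21.8 ± 1.70 CPM (SD, n = 3), a log2 fold change of 0.29 ± 0.09 (SE, edgeR adjusted p = 0.0147), or 1.22-fold. The call was lost without green replicate 1 (0.23, adjusted p = 0.102) and without non-green replicate 1 (0.22, adjusted p = 0.133). An annotated noncoding gene, AT2G08660, shares 206 bases with it on the same strand and was not analysed here.

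The other seipin genes differed by less than the spread of their libraries allowed to call. SEIPIN1 (AT5G16460), on chromosome 5 at 5376961 to 5378533, had 540, 494 and 477 counts in green and 547, 571 and 590 in non-green libraries. SEIPIN2 (AT1G29760), on chromosome 1 at 10422292 to 10424513, had 623, 519 and 604 counts in green and 659, 638 and 585 in non-green libraries. The groups overlap for both. Their log2 fold changes were 0.10 ± 0.07 for SEIPIN1 (SE, edgeR adjusted p = 0.376) and 0.03 ± 0.07 for SEIPIN2 (edgeR adjusted p = 0.822). Stretches of 25 bases were used to see whether reads could be exchanged between copies. SEIPIN2 and SEIPIN3 share 4 of their 2019 and 1786 exon stretches, and LDAP1, LDAP2, LDAP3, LDIP and SEIPIN1 had 0 that occur elsewhere in the nuclear genome.

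**Figure D3:**
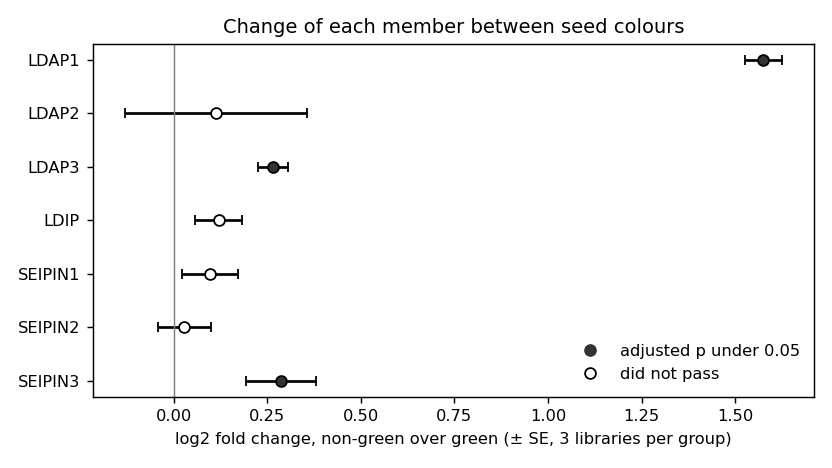
Log2 fold change of each gene, non-green over green (horizontal axis), with its SE from the edgeR fit over 3 libraries per group; filled points passed an adjusted p under 0.05. LDAP1 stands at 1.57, LDAP3 and SEIPIN3 at 0.26 and 0.29, and the other 4 genes between 0.03 and 0.12.

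Per length, the order of the 7 genes was the same in both seed colours. In green seeds LDAP3 led with 189 ± 4.003 RPKM (SD, n = 3), followed by LDAP1 with 41.0 ± 1.97, LDIP with 35.2 ± 0.760, SEIPIN1 with 24.6 ± 1.82, SEIPIN2 with 19.0 ± 1.90, SEIPIN3 with 9.60 ± 0.604 and LDAP2 with 3.09 ± 0.676. In non-green seeds the levels were 239 ± 10.5 RPKM for LDAP3, 129 ± 5.52 for LDAP1, 40.3 ± 1.07 for LDIP, 27.7 ± 1.15 for SEIPIN1, 20.4 ± 1.18 for SEIPIN2, 12.3 ± 1.11 for SEIPIN3 and 3.51 ± 0.230 for LDAP2. No 2 neighbours in either order had libraries that overlap. RPKM was scaled by the authors to library totals and not by TMM factors, so it serves for the order within a group. In green seeds LDAP3 lay above 98.7% of the genes tested and LDAP1 above 91.5%, and in non-green seeds LDAP1 lay above 97.8%. LDAP2 lay above 30.5% of them in green and 31.2% in non-green seeds.

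At the transcript level the oleosins, another family of oil droplet coat proteins, far exceeded the LDAPs in both seed colours. The RPKM sum of OLEO1, OLEO2, OLEO3, OLEO4 and the oleosin gene AT3G01570 was 177 ± 5.48 times that of the LDAP genes (SD, n = 3) in green libraries, against 126 ± 6.75 times in non-green ones. The ratio ran from 171 to 182 in green and from 122 to 134 in non-green libraries, which do not overlap. The colours differed less in the oleosin sum than in the LDAP sum. The oleosin sum was 37212 ± 1034 CPM in green and 40049 ± 1040 CPM in non-green seeds, 1.08-fold, against 1.55-fold for the LDAP sum.

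Other genes of the droplet went in both directions, and none of the lists below reached the change of LDAP1. The lists were put together with earlier results of these data known. Their counts stand beside 14.2% of all genes tested called higher and 12.5% called lower. Of 9 tested oleosin, caleosin and steroleosin genes 6 were called higher and 2 lower, with a median log2 fold change of 0.08. Among those called higher, OLEO1 did not pass with DESeq2 (adjusted p = 0.0866), and the libraries of AT3G01570 overlap between colours. The list leaves out the caleosin-related genes AT1G70680 and CLO4. They were lower at -0.42 ± 0.04 (SE, edgeR adjusted p = 2.71e-17) and -0.46 ± 0.04 (2.60e-15). The oleosin genes OLEO3 and OLEO4 rose by 0.72 ± 0.03 (SE, edgeR adjusted p = 2.46e-32) and 0.16 ± 0.03 (2.09e-06), and the caleosin gene ATS1 rose by 0.16 ± 0.03 (6.19e-05). The caleosin gene RD20, known as drought-responsive, was lower at -0.78 ± 0.14 (2.49e-06). The steroleosin gene AT5G50600 was called lower at -0.49 ± 0.14 (0.00488), but its groups overlap and a near-identical copy, AT5G50700, makes its value uncertain.

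Of 9 other droplet proteins 3 were called higher and 3 lower (14.2% and 12.5% of all genes tested), with a median of 0.09. AT1G05510, annotated to the lipid droplet in the deposited table, rose from 1696 ± 27.4 to 2283 ± 30.6 CPM (0.43 ± 0.03, edgeR adjusted p = 4.88e-21). The sterol methyltransferase gene SMT1 rose by 0.44 ± 0.08 (3.47e-06) and AT1G65090 by 0.13 ± 0.03 (0.00141), whereas the dehydration gene ERD7 was lower at -0.35 ± 0.05 (1.03e-09). Of 10 genes of triacylglycerol synthesis and of contacts of the endoplasmic reticulum 2 were higher and 0 lower (14.2% and 12.5% of all genes tested), with a median of 0.04. These were the acyltransferase gene DGAT2, at 0.65 ± 0.08 (3.01e-10), and PVA12, of the VAP27 family to which the seipin partner VAP27-1 belongs, at 0.26 ± 0.06 (0.000349). VAP27-1 itself was at 0.02 ± 0.05 (edgeR adjusted p = 0.796).

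Of 5 oil breakdown genes 2 were higher and 2 lower (14.2% and 12.5% of all genes tested), with a median of 0.12. The oil body lipase gene SDP1 was lower at -0.33 ± 0.06 (SE, edgeR adjusted p = 2.16e-05). The hydrolase or lipase genes AT4G24160 and AT3G14360 rose by 0.35 ± 0.09 (0.00120) and 0.17 ± 0.05 (0.00569).

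**Figure D4:**
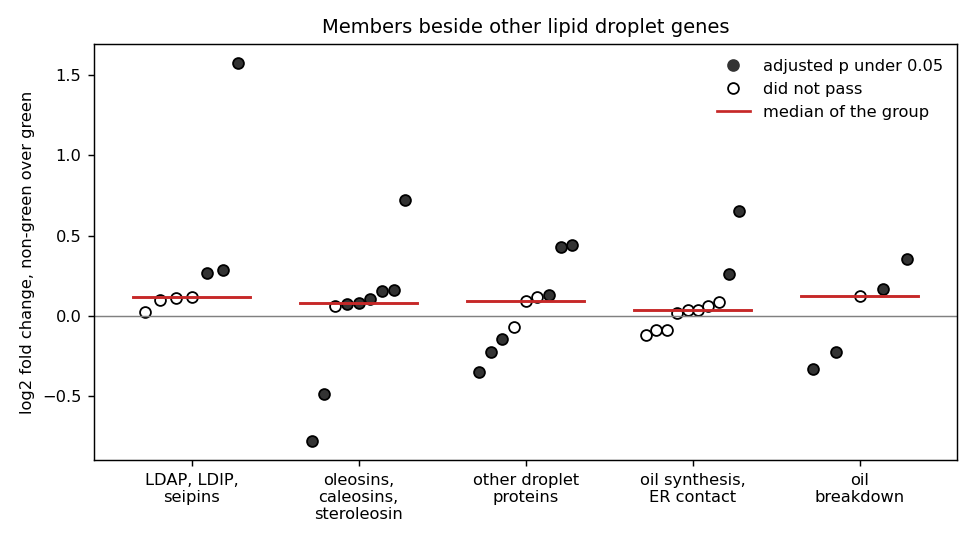
Log2 fold change, non-green over green (vertical axis), of each tested gene of the LDAP, LDIP and seipin group and of 4 other groups of droplet and oil genes; filled points passed an adjusted p under 0.05 and red lines are medians. LDAP1, at 1.57, lies above every other gene drawn, the next being OLEO3 at 0.72.

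For each gene that passed, the tested genes with the most similar course over the 6 libraries were found by the root mean square distance of centred log2 CPM. Nearest to LDAP1 were FTM1 (AT1G43800), a stearoyl-ACP desaturase family gene, at a distance of 0.0627 (Pearson r = 1.00 over 6 libraries), CHIL (AT5G05270), a chalcone isomerase family gene, at 0.0668, and MYB111 (AT5G49330), a MYB transcription factor gene, at 0.0686. FTM1 went from 231 ± 4.75 to 676 ± 10.6 CPM (SD, n = 3), CHIL from 7.05 ± 0.0824 to 20.1 ± 0.846 and MYB111 from 1.22 ± 0.0402 to 3.78 ± 0.176. Nearest to LDAP3 were ATMAP65-6, HCF243 and FAD5, and nearest to SEIPIN3 were AT1G03270, LIS and TUB7, at distances of 0.0187 to 0.0403. Of these genes FAD5 (edgeR adjusted p = 0.102) and LIS (0.0570) did not pass themselves. The 6 points of such a correlation fall into groups of 3, so r mostly restates the step between the colours.

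Markers of the embryo and of other seed and fruit tissues moved in the same libraries, and their part in the LDAP and seipin values was not tested. Over all genes tested 14.2% were called higher and 12.5% lower. Of the 4 embryo markers 1 was higher and 2 were lower, with a median log2 fold change of -0.02. CRU3 was at -0.23 ± 0.02 (SE, edgeR adjusted p = 6.75e-17) and CRA1 at -0.11 ± 0.02 (1.13e-05), while OLEO1 was at 0.07 ± 0.03 (0.0200) and did not pass with DESeq2 (adjusted p = 0.0866). The edgeR adjusted p of OLEO1 also rose to between 0.0597 and 0.176 without green replicate 1 or 3 or non-green replicate 2 or 3, each left out alone. The balance of the embryo markers depended on the scaling. With scaling by total counts OLEO1 was at 0.15 (edgeR adjusted p = 6.78e-12) and OLEO2 was called higher too, at 0.14 (4.86e-08). CRA1 and CRU3 stayed lower there, at -0.04 (0.0232) and -0.15 (1.26e-22). Of 11 tested seed coat markers 6 were lower and 0 higher, with a median log2 fold change of -0.43. TT2 went the other way, at 0.94 ± 0.49, and did not pass (edgeR adjusted p = 0.159). The seed coat sum was 1114 to 1174 CPM in green and 816 to 837 CPM in non-green libraries. Most of it came from TT10 (means of 725 and 532 CPM) and ARA12 (214 and 170 CPM). Of 4 tested endosperm markers (of 9 listed, 2 of them, PHE1 and WRKY10, at 0 in all libraries) 2 were lower. These were MEA at -1.26 ± 0.23 (SE, edgeR adjusted p = 4.49e-06) and ALE1 at -1.92 ± 0.49 (0.00142). Both were scarce, with green means of 5.18 and 1.28 CPM. RGE1 (-0.06) and EPR1 (0.06) did not pass, and the median log2 fold change across these 4 was -0.66. The endosperm sum came nearly all from EPR1, so it hardly reflects MEA and ALE1. It was 12615 to 14577 CPM in green and 13381 to 14873 CPM in non-green libraries. Of 6 tested silique wall markers 2 were higher and 0 lower, with sums of 86.7 to 93.0 and 89.8 to 106 CPM and AGL8 at 0 in all libraries.

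The authors' deposited table gives log2 fold changes of 1.55 for LDAP1, 0.26 for LDAP3 and 0.27 for SEIPIN3 with adjusted p under its own test of 3.66e-198, 4.77e-12 and 0.0327, and for LDAP2, LDIP, SEIPIN1 and SEIPIN2 adjusted p of 0.836, 0.240, 0.497 and 0.888.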

How the data were processed

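RNA was sequenced from seeds sorted by colour. Per the labels' protocols, plants were kept at 22 °C under 16 h light of 120 µE and 8 h dark, and TruSeq libraries came from 1 µg of total RNA. The authors deposited counts per gene model and RPKM per library. Bowtie 0.12.2 and TAIR10 are named per the submitters' processing notes; the counter, strand use, read length and handling of multi-matching reads are unstated in the sources used here. The deposited table also holds the authors' mean signal, log2 fold change, test score and p-values, whose settings are not stated. RPKM and counts implied a whole gene length within 0.05 bases in 100% of 29216 values that rounding allowed to check, so RPKM is a rescaled count.

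Counts were filtered with filterByExpr, scaled with TMM (factors 0.959 to 1.04) and tested two-sided with edgeR 4.0.16 quasi-likelihood in R 4.3.3, with colour as the only term and Benjamini-Hochberg adjustment over all 17239 genes; the threshold was 0.05. The SE is the log2 fold change over the root of F. The scripts were tested on simulated data. CPM use TMM-scaled library sizes and SD is over 3 libraries.

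Genes named are chlorophyll synthase, the 7 members, up to 4 called genes per list with the smallest adjusted p, and the 3 nearest patterns per called member (prior count 2); 1 gene that this rule takes is not reported here. AT5G50600, VAP27-1 and genes overlapping a member were named after their values were seen. The members and lists were chosen with earlier results of these data known. Alternatives were DESeq2 1.42.0, no filter on low counts, total-count scaling, a replicate block and leaving out each library. Promoter windows were cut from the genome because no table of promoters was used here.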

Additional observations from a re-analysis of the deposited data

How the results depend on the processing

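LDAP1 stayed called higher under all 10 alternatives (log2 fold change 1.53 to 1.65), as did LDAP3 (0.24 to 0.34); SEIPIN1 (0.05 to 0.17), SEIPIN2 (-0.04 to 0.10) and LDAP2 (-0.02 to 0.29) stayed uncalled, with a negative sign for LDAP2 without green replicate 3 and for SEIPIN2 without green replicate 2. LDIP was called only with scaling by total counts (0.20). SEIPIN3 ran from 0.22 to 0.34 without single libraries, with the call lost in 2 of 6 cases. Members called higher numbered 2 to 3 without single libraries and 4 with total-count scaling. Genes called over the table numbered 4593, and 3968 to 4643 under the alternatives.

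Same-numbered libraries showed no strong shared deviation over the genes tested: their deviations correlated at 0.0133, 0.00385 and -0.00140. Whether they shared plants or a harvest is not stated, and these values cannot decide it. The replicate block gave 4643 calls and changed no member's call.

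Shares computed per length (RPKM) instead of from CPM moved by more than 1 SD in most cases. For green and non-green libraries they were 17.6% and 34.7% for LDAP1, 81.1% and 64.4% for LDAP3, 46.2% and 45.9% for SEIPIN1, 35.7% and 33.7% for SEIPIN2, and 18.1% and 20.4% for SEIPIN3, and 0.948% for LDAP2 in non-green libraries. With 38 to 57 counts per library, depth limits what can be said of LDAP2.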

Other observations

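Genes that the deposited table annotates to the lipid droplet, beyond the LDAP genes and the lists above, include the caleosin-related genes AT1G70680 and CLO4 (AT1G70670). AT1G70680 was lower in non-green seeds, at -0.42 ± 0.04 (SE, edgeR adjusted p = 2.71e-17), with 550 ± 9.82 CPM in green and 410 ± 9.78 CPM in non-green seeds (SD, n = 3). CLO4 was lower at -0.46 ± 0.04 (edgeR adjusted p = 2.60e-15), with 146 ± 2.83 and 106 ± 2.63 CPM. Of the 8 tested genes with this annotation other than the LDAP genes, 4 were higher and 2 lower, with a median of 0.11. All 4 higher genes were already counted in the lists above, and the 2 lower ones are AT1G70680 and CLO4. The shares over all genes tested were 14.2% higher and 12.5% lower.

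The 3 LDAP genes also carry the annotation of positive regulation of the response to water deprivation. The other 3 tested genes with it did not reach the change of LDAP1. AT3G13672, annotated as a TRAF-like protein, was at -0.63 ± 0.14 (SE, edgeR adjusted p = 0.000270) and the strigolactone signalling gene MAX2 at -0.40 ± 0.11 (0.00344). AT5G58787 was at 0.27 ± 0.11 (0.0574), near the value of LDAP3, and did not pass. Lipid storage and lipid droplet organization, which some members also carry, were looked up as well. Of 18 other tested genes annotated to lipid storage 8 were called higher and 1 lower. Of 3 others annotated to lipid droplet organization 2 were higher (DGAT2 and ATS1, named above) and 0 lower. Over all genes tested 14.2% were called higher and 12.5% lower. These annotation groups were looked up after the values were seen.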
